A study of Mus musculus with 4 samples.

Results

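To describe the mRNA levels of the lysosome and of its proton pump, 43 genes were taken by their NCBI gene identifier from the 24532 identifiers of a bulk RNA-seq experiment on the mouse cerebellum. Of these, 17 encode the vacuolar proton pump, 17 encode lysosomal hydrolases, and 9 encode other lysosomal proteins or the transcription factor TFEB. The libraries came from granule-cell-enriched (GCE) tissue, which had been cut by hand from slices of the cerebellar vermis of adult male mice. There were 2 wild-type (WT) mice and 2 *Kdm3b*+/- littermates, with 1 library per mouse. The *Kdm3b*+/- mice carried 1 copy of *Kdm3b* with the gene-trap vector pGT0lxf between exons 12 and 13, from the ES cell line YTC406, on a line that was backcrossed to C57BL/6N and then crossed to C57BL/6J. The trap was not restricted to a cell type, and the labels name no agent. The level of each gene was given as TPM (StringTie's transcript abundance), a share of all transcripts that is corrected for transcript length, so that levels of different genes can be compared. All 43 genes were measured in all 4 libraries, and all passed the minimum of a mean TPM of 1 that was set for a test.

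The lysosome is the acidic compartment in which proteins, sugars and lipids are broken down. Its acidity is set by the vacuolar ATPase, a rotary pump in which the cytosolic V1 sector hydrolyses ATP and the V0 sector in the membrane moves protons. The same pump acidifies synaptic vesicles and drives their filling with neurotransmitter, so neurons make much of it for a purpose other than degradation. TFEB and its relatives bind an E-box (CACGTG) in the promoters of many lysosomal genes. KDM3B, the product of the gene that was trapped, removes mono- and dimethylation from lysine 9 of histone H3.

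The E-box was looked for in the promoters, because many lysosomal genes are known to share it. Windows from 250 bases before to 50 bases after a RefSeq start (GRCm38.p6) were found for 35 of the 43 genes. CACGTG, which reads the same on both strands, was in a window of 13 of the 35 genes (37.1%) and in 8.09% of 27025 mouse genes with a window. By class, it was in 4 of 12 pump genes, 6 of 14 hydrolase genes and 3 of 9 of the others. The longer TCACGTGA, which contains it, was in 7 of the 35 genes (20%) and in 1.13% of all genes. A match of letters is a description and no evidence that a factor binds. Bases before the start are printed here for 4 genes, 5′ to 3′ with CACGTG in capitals. *Lamp1* has the most copies among the members, and *Gaa* and *Ctsf* are hydrolase genes with 1 copy each that had lower TPM in both *Kdm3b*+/- mice. *Cd63*, the only member that passed the test of genotype, has none in its window. These 4 do not stand for all members. *Psap*, *Lipa*, *Ppt1* and *Ctsz* were also lower in both *Kdm3b*+/- mice but have no CACGTG in a window. *Atp6v0b*, which has 2 copies, was higher in both. Whether the motif goes with the direction of the difference was not tested.
*Lamp1*, chr8:13158911-13159160, plus strand: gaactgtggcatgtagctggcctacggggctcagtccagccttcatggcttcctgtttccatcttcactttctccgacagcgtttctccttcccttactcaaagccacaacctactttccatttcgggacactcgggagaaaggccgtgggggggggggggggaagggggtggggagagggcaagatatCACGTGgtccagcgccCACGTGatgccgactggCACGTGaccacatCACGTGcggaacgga
*Gaa*, chr11:119267713-119267886, plus strand: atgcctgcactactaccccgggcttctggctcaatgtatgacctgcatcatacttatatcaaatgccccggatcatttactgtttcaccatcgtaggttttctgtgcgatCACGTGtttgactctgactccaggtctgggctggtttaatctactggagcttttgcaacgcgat
*Ctsf*, chr19:4854915-4855129, plus strand: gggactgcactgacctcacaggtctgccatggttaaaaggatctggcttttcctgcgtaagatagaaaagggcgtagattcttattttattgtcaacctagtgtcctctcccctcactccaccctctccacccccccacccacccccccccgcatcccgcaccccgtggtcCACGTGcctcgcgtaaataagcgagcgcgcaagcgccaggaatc
*Cd63*, chr10:128909095-128909344, plus strand: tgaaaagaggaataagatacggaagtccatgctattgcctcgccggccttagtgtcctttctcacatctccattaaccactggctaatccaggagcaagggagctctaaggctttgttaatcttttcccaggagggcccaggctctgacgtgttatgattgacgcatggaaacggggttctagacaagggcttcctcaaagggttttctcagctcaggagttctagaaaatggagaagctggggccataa
The 4 copies of *Lamp1* begin 61, 45, 28 and 15 bases before the start, that of *Gaa* 140 bases before it and that of *Ctsf* 79 bases before it. The *Gaa* and *Ctsf* stretches were ended where an annotated exon begins. The *Cd63* window lies before the RefSeq start that was used, but inside the longer *Cd63* gene of the deposited tables, whose start is upstream of it.

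Between 4.92 and 6.69 gigabases were aligned per library. The TPM of *Kdm3b* itself was 9.10 and 11.0 in WT animals against 8.30 and 7.90 in those with the trap, and this difference did not pass the test (log2 fold change -0.27, SE 0.17, limma adjusted p = 0.424). The paper reports from immunoblots that KDM3B protein, a measure other than mRNA, was lower in the mutant vermis and flocculus. Granule cell markers were abundant in every library (summed TPM 4360.3 to 5225 for 11 genes), as were those of oligodendrocytes (14994 to 17937 for 10 genes). WT mouse 1 stood apart in its markers of Purkinje cells (summed TPM 1657 against 744 to 928 in the other mice, 11 genes). Its TPM of *Hbb-bs*, a β-globin gene, was 506, against 8.08 in WT mouse 2 and 0.0077 and 0.142 in *Kdm3b*+/- mice. Both *Kdm3b*+/- values of *Hbb-bs* were thus below both WT values, and the difference did not pass the test (log2 fold change -5.98, SE 1.37, limma adjusted p = 0.116). By contrast, *Hba-a1*, an α-globin gene, was lowest in WT mouse 1 (73.7 against 115 to 143). Bulk tissue cannot tell fewer cells of a type from less RNA per cell. Genotypes were compared with limma on log2(TPM + 1), and a gene was called differentially expressed (DEX) where its fold change exceeded 1.2 and its adjusted p was below 0.05. Of 13652 genes tested, 63 (0.461%) were DEX, and the median log2 fold change was -0.07.

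As a group, the 43 chosen genes were among the abundant transcripts of this tissue. Their mean TPM ran from 6.85 for *Lipa* to 2938 for *Atp6v0c*, with a median of 171 against 19.0 for all genes tested. This does not extend to the pathway at large, since the 81 further pathway genes examined below had a median of 28.9. The genotype comparison called 1 of the 43 genes, *Cd63*, which was higher in *Kdm3b*+/- mice (DEX genes higher in *Kdm3b*+/- mice were 0.117% of all genes tested). None was called lower, against 0.344% of all genes. At an unadjusted limma p under 0.05, 3 members were higher (*Cd63*, *Ctsh* and *Atp6v1f*; background 5.47%) and 5 were lower (*Psap*, *Gaa*, *Lipa*, *Atp6v0a1* and *Ctsf*; background 11.5%). That split was 4 higher and 3 lower with FPKM or with median-ratio scaling, and 2 higher and 7 lower after quantile normalization. The groups did not overlap for 9 members that were higher (background 19.2%) and for 13 that were lower (background 32.0%), in all 22 of 43 (51.2%) against 51.3% of all genes tested. Since 2 mice against 2 cannot give an exact two-sided permutation p below 0.333, no gene was tested alone, and p-values come from the limma fit over all genes.

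**Figure D1:**
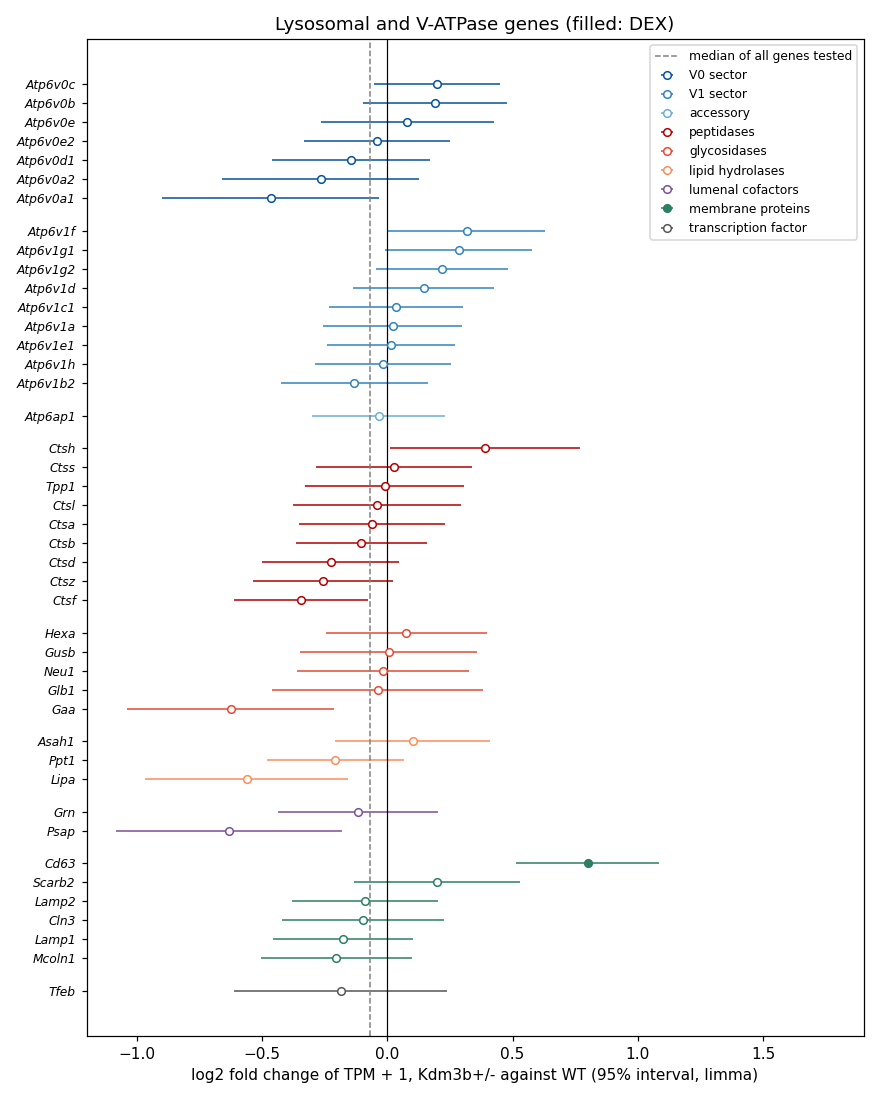
Log2 fold change of TPM + 1 in *Kdm3b*+/- against WT mice for the 43 genes, by role, with the 95% interval from limma; the dashed line is the median of all genes tested (-0.07). The interval of *Cd63*, the filled point at 0.80, lies far to the right of 0, and most other intervals include 0.

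The V0 sector, the membrane part of the pump, held both the most abundant and the least abundant of the pump transcripts. *Atp6v0c*, which encodes the proteolipid of the proton-carrying ring, had a TPM of 2722 and 2739.6 in WT mice and of 3353 and 2935 in *Kdm3b*+/- mice. Both *Kdm3b*+/- values were above both WT values, but the difference did not pass the test (log2 fold change 0.20, SE 0.11, limma adjusted p = 0.385). An entry for *Atp6v0c-ps2* overlaps *Atp6v0c* on the same strand over 5530 bases, with a mean TPM of 3.62. *Atp6v0b*, the other proteolipid, had a log2 fold change of 0.19, again without overlap of the groups.

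The a subunit of V0 forms the path of the protons next to the ring, and its isoforms direct the pump to different membranes. *Atp6v0a1*, the main neuronal isoform, had a TPM of 117 and 152 in WT mice and of 81.0 and 114 in *Kdm3b*+/- mice. These groups did not overlap, although WT mouse 1 and *Kdm3b*+/- mouse 2 were close, and the difference did not pass the test (log2 fold change -0.47, SE 0.19, limma adjusted p = 0.268). *Atp6v0a2*, an isoform of the Golgi and endosomes, was the lowest of the pump genes, with a TPM of 19.7 and 24.1 in WT mice and of 16.1 and 19.95 in *Kdm3b*+/- mice. Its groups overlapped (log2 fold change -0.27). *Atp6v0d1*, which couples the ring to the central stalk, had a log2 fold change of -0.15, with overlapping groups.

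The small e subunit is also made from a pair of genes. *Atp6v0e2* had a TPM of 969 and 870.3 in WT mice and of 820.0 and 970.4 in *Kdm3b*+/- mice. *Atp6v0e* was several times lower, at 182 and 147 in WT mice and 187 and 160.0 in *Kdm3b*+/- mice. Both pairs of groups overlapped, with log2 fold changes of -0.04 and 0.08 whose sign depended on the scaling or correction used. Over the 7 V0 genes, 2 were higher (background 19.2%) and 1 was lower (32.0%) without overlap, and the median log2 fold change was -0.04.

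The V1 sector, which hydrolyses ATP, had mean TPM between 232 (*Atp6v1a*) and 1382 (*Atp6v1e1*). Of its 9 genes, 4 were higher in *Kdm3b*+/- mice without overlap (background 19.2%) and none was lower in that way (32.0%), and none was DEX. *Atp6v1f*, a subunit of the central stalk, had a TPM of 507 and 432 in WT mice and of 635 and 535 in *Kdm3b*+/- mice. Its log2 fold change of 0.32 (SE 0.14) was the largest increase in the pump but did not pass the test (limma adjusted p = 0.290). *Atp6v1d*, its partner in the stalk, had a log2 fold change of 0.15.

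The g subunit, a part of the peripheral stalk that holds V1 to V0, is made in the brain from a widely used and a mainly neuronal gene. *Atp6v1g1*, the widely used one, had a TPM of 391 and 344 in WT mice and of 473 and 422 in *Kdm3b*+/- mice. *Atp6v1g2*, the neuronal one, had a TPM of 1216 and 1066 in WT mice and of 1353 and 1298 in *Kdm3b*+/- mice. Neither pair of groups overlapped, and neither difference passed the test (log2 fold changes 0.28 and 0.22, limma adjusted p = 0.304 and 0.369). *Atp6v1g2* overlaps *Nfkbil1* on the opposite strand over 806 bases. The other 5 V1 genes had overlapping groups. Those of the catalytic ring, *Atp6v1a* and *Atp6v1b2*, had log2 fold changes of 0.02 and -0.13, *Atp6v1e1* of the peripheral stalk had 0.01, and *Atp6v1c1* and *Atp6v1h*, which join and regulate the sectors, had 0.03 and -0.02. *Atp6ap1*, an accessory subunit of the pump, had -0.04.

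**Figure D2:**
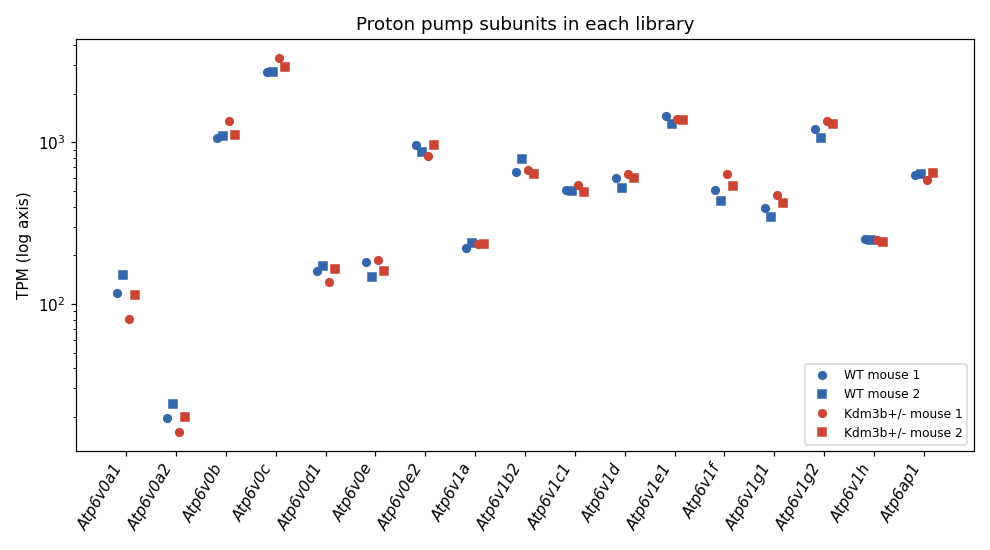
TPM on a log axis of the 17 pump genes in each library (blue, WT; red, *Kdm3b*+/-; circles, mouse 1; squares, mouse 2). Levels run from 16.1 to 24.1 for *Atp6v0a2* up to 2722 to 3353 for *Atp6v0c*, and differences between genes are far larger than those between genotypes.

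The balance of isoforms within the pump was compared as the share of one gene in the summed TPM of its pair. *Atp6v0a2* made up 14.4% and 13.7% of the summed TPM of *Atp6v0a1* and *Atp6v0a2* in WT mice, and 16.6% and 14.8% in *Kdm3b*+/- mice. The share of *Atp6v0e* in its pair was 15.8% and 14.4% against 18.6% and 14.2%, and that of *Atp6v1g1* was 24.3% and 24.4% against 25.9% and 24.5%. The *Kdm3b*+/- shares were above the WT shares for *Atp6v0a2* and *Atp6v1g1* and overlapped them for *Atp6v0e*, and the largest gap between genotype means was 1.68 percentage points.

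The hydrolases were on the whole less abundant than the pump, with a median of the mean TPM of 99.8 against 527 for the pump genes. None of the 17 was DEX. In *Kdm3b*+/- mice, 7 were lower (background 32.0%) and 1 was higher (19.2%) without overlap of the groups, and the median log2 fold change was -0.04, which turned to 0.02 with FPKM, 0.03 with median-ratio scaling and 0.06 with a correction for length and GC content.

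Among the 9 peptidases, *Ctsd*, the aspartic protease cathepsin D, was the most abundant. Its TPM was 709 and 762 in WT mice and 593 and 665 in *Kdm3b*+/- mice, without overlap, and the difference did not pass the test (log2 fold change -0.23, SE 0.12, limma adjusted p = 0.368). *Ctsf*, the cysteine protease cathepsin F, differed little within a genotype, with a TPM of 335 and 337 in WT mice and of 263 and 267 in *Kdm3b*+/- mice. The gap between its groups was many times the spread within them, but the limma fit, which shares the spread across genes, gave an adjusted p = 0.218 (log2 fold change -0.34, SE 0.12). *Ctsh*, an aminopeptidase, went the other way with 21.1 and 16.4 in WT mice against 25.7 and 23.7 in *Kdm3b*+/- mice, and did not pass the test (log2 fold change 0.39, SE 0.17, limma adjusted p = 0.281).

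The other peptidases differed less. *Ctsz*, a carboxypeptidase, and *Ctsb*, an abundant cysteine protease, had log2 fold changes of -0.26 and -0.10 without overlap. *Ctsl*, *Ctss* and *Tpp1* had values of -0.04, 0.03 and -0.01 with overlapping groups. *Ctsa* had -0.06, but it overlaps *Pltp* on the opposite strand over 1515 bases, and whether counting used strand is not given in the sources used here, so reads of the pair may be shared. *Ctsb* also overlaps an opposite gene, *Fdft1*, over 773 bases.

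Among the 5 glycosidases, *Gaa*, the acid α-glucosidase that breaks down glycogen in the lysosome, had the largest difference. Its TPM was 108 and 142 in WT mice and 69.7 and 91.7 in *Kdm3b*+/- mice. The groups did not overlap, and the difference did not pass the test (log2 fold change -0.63, SE 0.18, limma adjusted p = 0.174). *Hexa*, *Glb1*, *Gusb* and *Neu1*, which remove other sugars from glycolipids and glycans, had log2 fold changes between -0.04 and 0.08 and overlapping groups. The means of *Glb1* (13.7) and *Gusb* (14.6) were among the lowest TPM of all members.

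Of the 3 enzymes that act on lipids and on fatty acids linked to proteins, *Lipa*, the acid lipase for cholesteryl esters, was the least abundant member. It had a TPM of 7.86 and 8.83 in WT mice and of 4.70 and 6.01 in *Kdm3b*+/- mice, without overlap, and did not pass the test (log2 fold change -0.56, SE 0.18, limma adjusted p = 0.192). *Ppt1*, which removes palmitate from proteins, had a log2 fold change of -0.21 without overlap. *Asah1*, the acid ceramidase, had 0.10 with overlapping groups.

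*Psap*, the precursor of the saposins that present lipids to these enzymes, was lower in both *Kdm3b*+/- mice, but unequally so. It had a TPM of 1144 and 1000.5 in WT mice and of 874 and 544 in *Kdm3b*+/- mice. Both *Kdm3b*+/- values were below both WT values, with mouse 2 far below mouse 1, and the difference did not pass the test (log2 fold change -0.63, SE 0.20, limma adjusted p = 0.190). It was -0.97 without *Kdm3b*+/- mouse 1 (adjusted p = 0.000492, with the lone mouse assumed to vary like the others) and -0.29 without *Kdm3b*+/- mouse 2 (adjusted p = 0.406). *Grn*, the precursor of the granulins, had a log2 fold change of -0.12 with overlapping groups.

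*Cd63*, a tetraspanin of late endosomes, lysosomes and the vesicles released from them, rose in *Kdm3b*+/- mice. It lies at chr10:128908919-128912818 on the plus strand as the deposited tables give it. Its TPM was 265 and 236 in WT mice (250.3 ± 20.8, SD, n = 2) and 421 and 451 in *Kdm3b*+/- mice (436 ± 20.7, SD, n = 2), so that the groups were apart by far more than the spread within either. The mean in *Kdm3b*+/- mice was 1.74 times that in WT mice (log2 fold change 0.80, SE 0.13, limma adjusted p = 0.0360), and *Cd63* ranked 48 by p among the 13652 genes tested. The log2 fold change stayed between 0.67 and 1.01 in all 18 alternatives, and the call held in 12 of them. It was lost without WT mouse 1 (limma adjusted p = 0.0723), without WT mouse 2 (0.140), with FPKM in place of TPM (0.0566), with no filter on low TPM (0.381), without the mean-variance trend (0.102) and with the replicate number as a block plus the correction for length and GC content (0.0584).

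**Figure D3:**
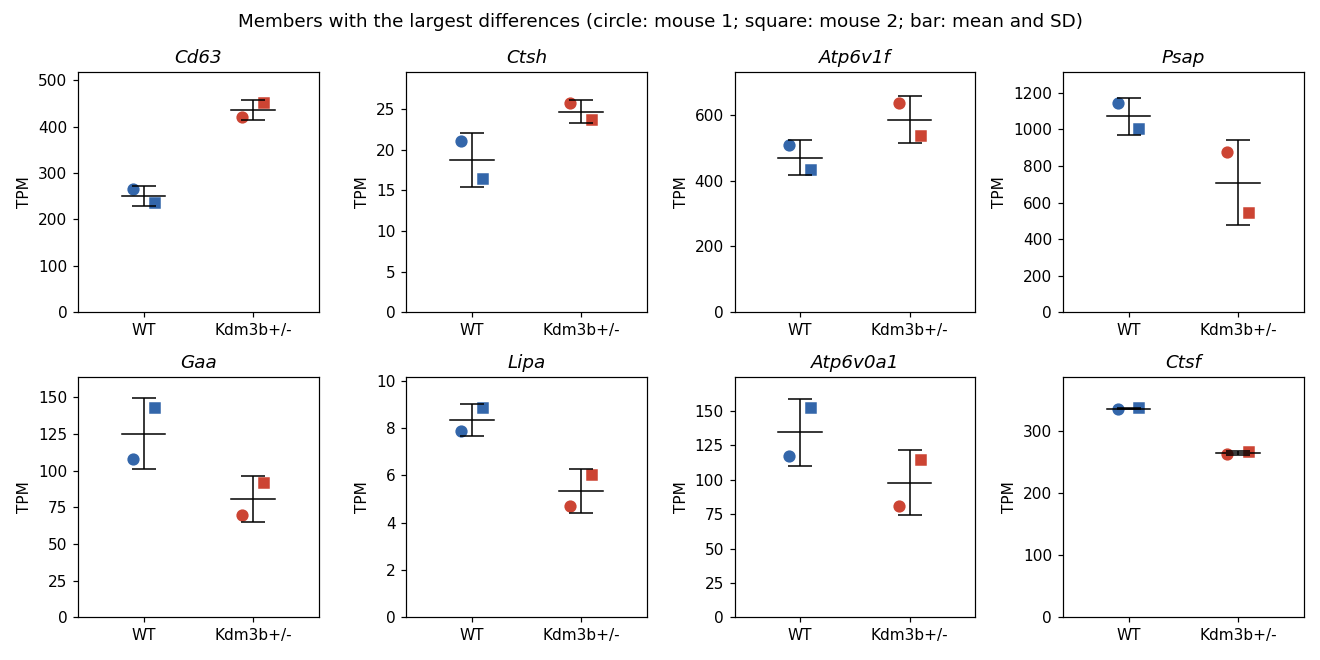
TPM in each library of the 8 members with an unadjusted limma p under 0.05 (circles, mouse 1; squares, mouse 2; lines, mean and SD of 2 mice; axes start at 0). *Cd63* is at 236 and 265 in WT and 421 and 451 in *Kdm3b*+/- mice, and *Kdm3b*+/- mouse 2 alone brings *Psap* down to 544.

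None of the other 5 membrane protein genes was DEX. *Lamp1*, the abundant glycoprotein that lines the lysosome, had a TPM of 1005 and 919.8 in WT mice and of 789.5 and 916 in *Kdm3b*+/- mice, with *Kdm3b*+/- mouse 2 just below the lower WT value, and did not pass the test (log2 fold change -0.18, limma adjusted p = 0.485). *Lamp2*, its relative, had -0.09, and the calcium channel gene *Mcoln1* had -0.20, both without overlap. *Cln3*, a gene of juvenile neuronal ceroid lipofuscinosis, had the lowest level of the membrane proteins, with a TPM of 26.0 and 26.9 in WT mice and of 24.4 and 24.9 in *Kdm3b*+/- mice. Its log2 fold change of -0.10 turned to 0.02 after quantile normalization. *Scarb2*, which carries β-glucocerebrosidase to the lysosome, had 0.20 without overlap.

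*Cd63* and many hydrolases are also made by microglia and astrocytes, so markers of these cells were examined beside them. Of 15 microglial markers tested among 16, 12 had a positive log2 fold change (39.6% of all genes tested) and 3 a negative one, 7 were higher in *Kdm3b*+/- mice without overlap (background 19.2%) and none was DEX. The summed TPM of the 16 was 333 and 356 in WT mice and 358 and 384 in *Kdm3b*+/- mice, and none was at 0 in any library. At an unadjusted limma p under 0.05, 3 microglial markers were higher (background 5.47%) and 0 were lower (11.5%). The 12 markers of astrocytes and Bergmann glia had a median log2 fold change of -0.39 and a summed TPM of 1712 and 1779 against 1499 and 1556, with *Aqp4* alone DEX, at a log2 fold change of 1.10. Of these 12, 8 were lower (background 32.0%) and 2 were higher (19.2%) without overlap. At an unadjusted limma p under 0.05, 6 of the 12 were lower (background 11.5%) and 2 were higher (5.47%). The part of microglia and astrocytes in the levels of *Cd63* or of the hydrolases was not tested. Markers of other cells differed as well. All 10 Purkinje cell markers tested had a negative log2 fold change (60.4% of all genes tested), with a median of -0.48. Of these, 3 were lower without overlap (background 32.0%). Among 10 oligodendrocyte markers, 6 had a positive and 4 a negative log2 fold change, and *Mobp* alone was DEX, at -0.93.

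*Tfeb*, the transcription factor that drives many of these genes, had a TPM of 32.5 and 43.3 in WT mice and of 28.8 and 37.4 in *Kdm3b*+/- mice. The groups overlapped, and the 2 mice of each genotype differed by more than the genotype means did (log2 fold change -0.19, SE 0.19, limma adjusted p = 0.638).

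Since the pump and the hydrolases work in one organelle but the pump also serves synaptic vesicles, both were set against each other within each library. The mean log2(TPM + 1) of the 17 pump genes was 8.74 and 8.72 in WT mice and 8.76 and 8.75 in *Kdm3b*+/- mice. That of the 17 hydrolases was 6.48 and 6.50 in WT mice and 6.34 and 6.42 in *Kdm3b*+/- mice. The difference between both was 2.25 and 2.22 in WT mice and 2.41 and 2.33 in *Kdm3b*+/- mice, so that the genotype means differed by 0.13 on the log2 scale (pooled SD 0.045). No p is given, because the genes were chosen with earlier results known. The value fell to 0.07 after quantile normalization and to 0.04 with the correction for length and GC content. By counts, 10 of 17 pump genes and 5 of 17 hydrolases had a positive log2 fold change (39.6% of all genes tested). The median over the pump genes was 0.02, and it was 0.09 with FPKM or median-ratio scaling and -0.02 after quantile normalization. The median of all genes tested was -0.07 as reported. It was -0.01 with FPKM, -0.005 with median-ratio scaling and 0.005 after quantile normalization.

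**Figure D4:**
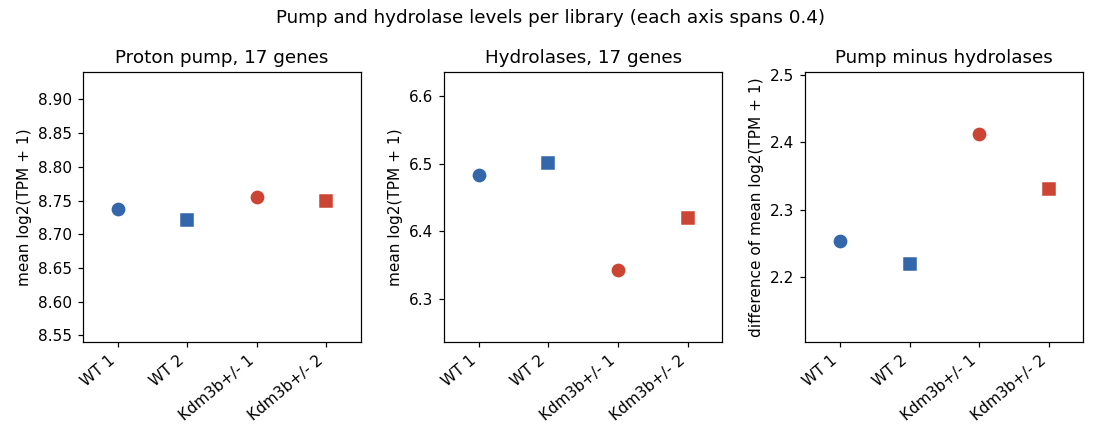
Mean log2(TPM + 1) of the 17 pump genes and of the 17 hydrolases in each library, and the difference between them; each axis spans 0.4 (blue, WT; red, *Kdm3b*+/-). The difference is 2.22 and 2.25 in WT mice and 2.33 and 2.41 in *Kdm3b*+/- mice.

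The fold changes of the pump genes ran with the length of their transcripts. Across the 17 genes, log2 fold change and transcript length had Pearson's r of -0.66 and Spearman's rho of -0.68. The short *Atp6v1f* (703 bases) had the highest fold change and *Atp6v0a1* (4008 bases) the lowest. The longer *Atp6v0a2* (5345 bases) and *Atp6v1a* (4234 bases) had -0.27 and 0.02. Over the 17 hydrolases r was -0.26 and rho -0.24, and over 12904 genes with a known length r was -0.11 and rho -0.27. These are descriptions across genes of the same 4 libraries, and genes are not independent replicates. *Cd63* (1063 bases) is among the short members as well, and its log2 fold change with the correction was 0.67 (limma adjusted p = 0.0458).

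**Figure D5:**
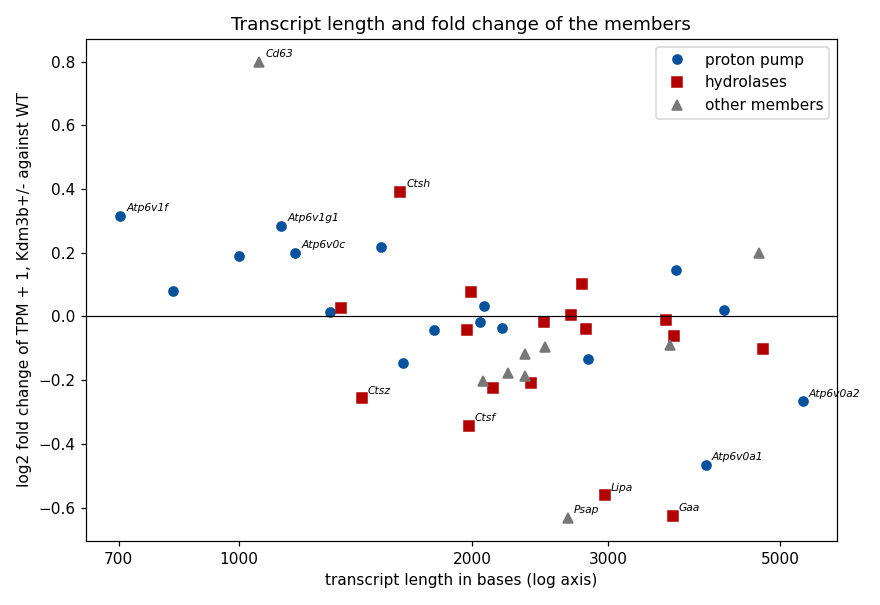
Log2 fold change of TPM + 1 against transcript length on a log axis for the 43 genes (circles, pump; squares, hydrolases; triangles, others). Among pump genes, *Atp6v1f* has the largest increase (703 bases, 0.32) and *Atp6v0a1* the largest decrease (4008 bases, -0.47). The longer *Atp6v0a2* (5345 bases) is at -0.27 and *Atp6v1a* (4234 bases) at 0.02. *Cd63* lies above all other members at 0.80.

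Further genes of the pump and further hydrolases, taken as whole lists, were examined in the same fit. Of 15 other pump genes, 9 were tested, and none was DEX. *Ccdc115*, an assembly factor, had the largest increase, with a TPM of 63.3 and 52.9 in WT mice and of 75.0 and 73.4 in *Kdm3b*+/- mice (log2 fold change 0.35, limma adjusted p = 0.266). *Rogdi*, a protein that associates with the pump at synapses, had the largest decrease, with 384 and 372 against 382 and 323 and overlapping groups (log2 fold change -0.10). The 6 that were not tested were isoforms best known from other tissues such as kidney, testis or bone, namely *Atp6v0a4*, *Atp6v0d2*, *Atp6v1b1*, *Atp6v1c2*, *Atp6v1e2* and *Atp6v1g3*. Their mean TPM was 0.439 or less, and *Atp6v1g3* was listed at 0 in all libraries.

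Of 30 other hydrolases, 29 were tested and none was DEX, with a median log2 fold change of -0.21 against -0.07 for all genes. A negative log2 fold change was found for 25 of the 29 (60.4% of all genes tested), 15 were lower without overlap (background 32.0%) and 1 was higher (19.2%), and 6 were lower at an unadjusted limma p under 0.05 (background 11.5%). How these counts and this median depend on the processing was not examined. For the member hydrolases, the sign of the median turned with FPKM, median-ratio scaling and the correction for length and GC content. With FPKM and median-ratio scaling, the median of all genes tested also rose, from -0.07 to -0.01 and to -0.005. *Dnase2a*, the lysosomal DNase, had the largest decrease, with a TPM of 18.7 and 22.2 in WT mice and of 13.5 and 14.8 in *Kdm3b*+/- mice (log2 fold change -0.50, SE 0.16, limma adjusted p = 0.197). *Sgsh*, a sulfatase for heparan sulfate, had the largest increase, at 1.91 and 1.65 against 2.28 and 2.19 (log2 fold change 0.22, limma adjusted p = 0.560).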

How the data were processed

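RNA-seq was performed on GCE tissue of 2 WT and 2 *Kdm3b*+/- mice, and groups and replicate numbers were taken from the sample labels. The authors trimmed low-quality bases, aligned reads with STAR and estimated abundance with StringTie. Their versions, the genome build, the annotation and the strandedness of counting are not given in the sources used here. The deposited tables hold coverage (mean read depth, not normalized), FPKM (scaled by the authors to length and mapped fragments) and TPM (scaled by the authors to length and a total of 1e+06). Values deposited under one gene identifier were summed. Aligned bases came from coverage divided by FPKM; counts per gene were not recovered, and no counting intervals are given.

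The test took genes whose mean TPM over the 4 libraries reached 1, on log2(TPM + 1), a scale that understates the change of low genes. The study tested estimated counts per gene; TPM is no count, so limma version 3.58.1 (eBayes with trend; R version 4.3.3, statmod version 1.5.0) took its place, with Benjamini-Hochberg adjustment over 13652 genes. The fit was tested on simulated data. Members and gene lists were chosen with earlier results of these data known. TPM is printed for the 5 largest increases and 5 largest decreases among the members, for the highest and lowest member by mean TPM of each class, for paralog pairs, *Tfeb* and any DEX member, and in other lists for the largest increase and decrease.

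Of the identifiers, 24462 of 24532 had a symbol, and 99.5% lay on the chromosome of a RefSeq table of GRCm38. Length and GC content came from the longest GENCODE transcript paired with RefSeq (94.5% of genes tested) and were corrected per library by loess with a span of 0.5. Promoters were from RefSeq (GRCm38.p6), and 38 of 43 windows matched a GENCODE transcript as written, with 0 on the opposite strand. Figures were drawn with Matplotlib 3.10.9 and tables made with pandas 2.3.3 and NumPy 2.4.6 in Python 3.11.15. Each mouse gave 1 library, so the p-values rest on the spread between these mice. For each gene, that spread was drawn by eBayes towards a trend shared by all genes tested.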

Additional observations from a re-analysis of the deposited data

How the results depend on the processing

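All 18 alternatives were run, and the correction by the longest transcript of any kind was chosen after seeing the data. With FPKM there were 0 DEX members, 3 lower at an unadjusted p under 0.05, and medians of 0.086 (pump) and 0.018 (hydrolases). Median-ratio scaling gave 3 lower and medians of 0.094 and 0.029. Quantile normalization gave a pump median of -0.016 and a pump-minus-hydrolase difference of 0.068. The median over all genes tested, -0.070 as reported, was -0.010 with FPKM, -0.005 with median-ratio scaling and 0.005 with quantile normalization. No filter on low TPM, and eBayes without trend, each gave 0 DEX members and 1 higher at an unadjusted p under 0.05. Correction for length and GC content left 7 members lower without overlap, medians of 0.039 and 0.056 and a difference of 0.035. With the longest transcript of any kind these were 6, 0.12, 0.056 and 0.070, with 5 members higher at an unadjusted p under 0.05. DEX genes over all tested were 2 with no filter on low TPM, 37 without the trend and 38 with FPKM, against 63 as reported.

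With a replicate block on the numbers of the labels there were 3 DEX members (*Cd63*, *Psap* and *Gaa*, adjusted p = 0.00644, 0.0239 and 0.0223 by limma) and 600 DEX genes (4.39%). Same-numbered mice are different animals, and the labels do not say whether a shared number stands for anything. With 2 pairs, deviations of same-numbered mice correlated at 0.121 over genes, and at 0.017 after the correction. The replicate block with the correction gave 0 DEX members, 7 lower without overlap, medians of 0.039 and 0.056 and a difference of 0.035. By longest transcript of any kind, the replicate block gave 6, 0.12, 0.056 and 0.070, and 5 higher.

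Leaving out each mouse in turn, with the lone mouse assumed to vary like the others, DEX members ranged from 0 (without either WT mouse) to 2 (without *Kdm3b*+/- mouse 1). Members at an unadjusted p under 0.05 ranged from 1 to 4 higher and from 1 to 5 lower, the pump median from 0.0053 to 0.046, the hydrolase median from -0.092 to -0.059 and the pump-minus-hydrolase difference from 0.09 to 0.18. DEX genes over all tested ranged from 21 to 188. *Atp6v0e2* ranged from -0.16 to 0.079, *Atp6v0e* from -0.074 to 0.23 and *Tfeb* from -0.39 to 0.016. Signs also turned for *Atp6v0e2* (0.023 with FPKM, 0.031 with median-ratio scaling), *Cln3* (0.018 with quantile normalization, 0.024 with the correction, 0.064 by longest transcript, the last 2 also with the replicate block) and *Atp6v0e* (-0.13 with the correction, with and without the replicate block). The other named members kept the sign of their log2 fold change in every alternative. The cause of these changes was not tested. Depth behind single genes is unknown, which limits low members such as *Lipa*.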

Other observations

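Further membrane proteins and transporters of the lysosome were examined as a whole list. Of 23 such genes tested, 11 had a positive and 12 a negative log2 fold change (39.6% and 60.4% of all genes tested), 3 were higher (background 19.2%) and 7 lower (32.0%) in *Kdm3b*+/- mice without overlap, and none was DEX. *Atp13a2*, a polyamine transporter of the lysosome, had the largest decrease, with a TPM of 56.9 and 87.2 in WT mice and of 36.4 and 52.1 in *Kdm3b*+/- mice, and did not pass the test (log2 fold change -0.68, SE 0.23, limma adjusted p = 0.212). *Lamtor2*, a subunit of the Ragulator complex that holds nutrient signalling at the lysosome, had the largest increase, at 207 and 172 against 259.6 and 206 with overlapping groups (log2 fold change 0.29, limma adjusted p = 0.370).

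Genes that sort hydrolases to the lysosome or regulate its genes were examined as well. Of 13 tested, 4 had a positive and 9 a negative log2 fold change (39.6% and 60.4% of all genes tested), and none was DEX. *Flcn*, folliculin, which acts on the Rag GTPases, had the largest decrease, with a TPM of 104 and 149.6 in WT mice and of 95.03 and 91.2 in *Kdm3b*+/- mice (log2 fold change -0.42, SE 0.18, limma adjusted p = 0.273). *Tfe3*, a relative of *Tfeb*, had 25.0 and 32.7 against 20.8 and 21.7, without overlap (log2 fold change -0.41, limma adjusted p = 0.266). *Rraga*, a Rag GTPase, had the largest increase, at 327 and 270.5 against 371 and 294 with overlapping groups (log2 fold change 0.15, limma adjusted p = 0.651). *M6pr* and *Igf2r*, the receptors for mannose 6-phosphate that carry hydrolases from the Golgi, had log2 fold changes of 0.08 and 0.10.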
